A study of Mus musculus with 173 samples.

Results

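Genes of the core splicing machinery were followed through single-cell RNA-seq libraries of the adult mouse dentate gyrus. The members are the rows of the expression table whose symbol starts with Snrp, Hnrnp, Hnrp, Srsf, Sfrs, Sf3a or Sf3b and that reached 1 TPM (a share of a library's transcripts, scaled by transcript length) in at least 5% of libraries. Of 52 rows with such a symbol 51 met the limit, among 12007 genes of the table that met it and 23307 rows in all. The members fell into 12 Snrp genes, 20 Hnrnp and Hnrp genes, 11 Srsf and Sfrs genes and 8 Sf3a and Sf3b genes. The row left out, Srsf12, was seen in 6 of 172 libraries (3.49%), and the members nearest to the limit, Sf3a2 and Hnrnpul1, were seen in 11 (6.40%) and 29 (16.9%). A gene is called seen in a library where it had at least 1 TPM.

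The study profiled quiescent neural stem cells of the hippocampus and their direct descendants. All libraries came from C57BL/6 mice aged 8 to 12 weeks, each made from the RNA of a single cell of the dentate gyrus of hippocampus in the brain. The labels give no treatment or genotype, and the titles fall into 3 classes with the letters N (26 libraries), R (4) and C (the rest of the 172), which the labels do not spell out. Since no label names an animal, the libraries of a class were not treated as replicates and no difference between classes was tested. Every SD is a spread between libraries. The 4 R libraries were only screened for outlying values.

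Splicing removes introns from pre-mRNA in the spliceosome, which is built from small nuclear ribonucleoproteins (snRNPs). Each of the U1, U2, U4 and U5 snRNPs carries a ring of Sm proteins, encoded by Snrpb or its relative Snrpn, Snrpd1, Snrpd2, Snrpd3, Snrpe, Snrpf and Snrpg, and the SF3A and SF3B complexes belong to the U2 particle that binds the branch point. SR proteins bind exons and recruit the machinery, while hnRNP proteins coat the transcript and often act against inclusion of an exon. Neurons are known for Snrpn, an imprinted gene whose product SmN replaces SmB in the ring.

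Promoter windows of the member with the largest difference between cycling and non-cycling libraries in each family are shown first, since that is the main comparison. The window of Srsf5 follows as a widely expressed SR gene without such a difference, and that of Snrpn as the member with the largest difference between R and C. Each window spans the annotated start and lies mostly upstream of it, 5′ to 3′, from RefSeq on GRCm38.p6, which is not the build of the deposited table. The windows lie at chr6:86371290-86371589 on the plus strand (Snrpg), chr15:103240147-103240446 on the plus strand (Hnrnpa1), chr17:80207256-80207555 on the minus strand (Srsf7), chr4:124714611-124714910 on the plus strand (Sf3a3), chr12:80945249-80945548 on the plus strand (Srsf5) and chr7:60005150-60005449 on the minus strand (Snrpn, 1 of 4 windows of that gene). Capitals mark matches, on either strand, to any of 7 searched words. The word for E2F factors, which switch on S phase genes, was GCGGGAA. For ETS factors, common at promoters of housekeeping genes, the word was CCGGAAG. The other words were AAGATGG for the factor YY1, the pentamer CCAAT of the box of that name, the core TATAAA of the TATA box, the hexamer TTTGAA of a cell cycle homology element, and for the factor NRF1 the octamer GCATGCGC. No word lies inside another, and overlapping matches were marked together.
Snrpg: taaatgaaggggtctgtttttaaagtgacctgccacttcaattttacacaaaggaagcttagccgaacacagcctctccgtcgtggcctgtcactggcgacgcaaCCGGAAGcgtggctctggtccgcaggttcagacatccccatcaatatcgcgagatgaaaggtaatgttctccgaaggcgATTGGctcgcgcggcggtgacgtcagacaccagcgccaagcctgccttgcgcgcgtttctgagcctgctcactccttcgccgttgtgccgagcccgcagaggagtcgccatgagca
Hnrnpa1: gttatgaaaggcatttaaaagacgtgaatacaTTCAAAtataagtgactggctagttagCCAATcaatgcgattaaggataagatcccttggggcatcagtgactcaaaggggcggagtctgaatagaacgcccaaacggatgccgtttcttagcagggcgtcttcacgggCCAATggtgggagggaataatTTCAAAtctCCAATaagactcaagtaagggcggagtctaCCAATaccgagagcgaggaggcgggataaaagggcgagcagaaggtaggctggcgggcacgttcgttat
Srsf7: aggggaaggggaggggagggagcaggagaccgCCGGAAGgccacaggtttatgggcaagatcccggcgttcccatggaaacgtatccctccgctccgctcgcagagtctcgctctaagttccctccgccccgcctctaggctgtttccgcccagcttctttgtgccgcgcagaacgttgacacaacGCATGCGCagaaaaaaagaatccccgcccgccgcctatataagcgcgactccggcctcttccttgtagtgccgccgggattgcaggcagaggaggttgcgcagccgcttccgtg
Sf3a3: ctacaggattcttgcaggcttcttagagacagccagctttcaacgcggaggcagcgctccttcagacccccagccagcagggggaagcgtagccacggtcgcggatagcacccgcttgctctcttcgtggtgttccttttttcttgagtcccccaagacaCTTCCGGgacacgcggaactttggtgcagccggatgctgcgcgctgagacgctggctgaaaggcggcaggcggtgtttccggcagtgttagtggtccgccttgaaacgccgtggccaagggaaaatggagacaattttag
Srsf5: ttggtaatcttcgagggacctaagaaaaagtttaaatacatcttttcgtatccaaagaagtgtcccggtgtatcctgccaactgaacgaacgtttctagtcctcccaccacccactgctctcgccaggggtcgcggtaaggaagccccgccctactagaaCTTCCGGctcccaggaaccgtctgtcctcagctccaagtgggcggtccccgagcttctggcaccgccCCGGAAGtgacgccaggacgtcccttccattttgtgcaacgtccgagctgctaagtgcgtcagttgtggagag
Snrpn: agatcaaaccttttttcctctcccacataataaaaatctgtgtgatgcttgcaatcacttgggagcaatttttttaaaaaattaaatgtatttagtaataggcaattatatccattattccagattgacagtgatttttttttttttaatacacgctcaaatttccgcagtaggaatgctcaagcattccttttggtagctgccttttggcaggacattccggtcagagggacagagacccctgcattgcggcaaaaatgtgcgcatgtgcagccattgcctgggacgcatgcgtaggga

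Member promoters were rich in CpG dinucleotides. Windows were matched for 44 of 51 members (61 windows) and held a median of 25 CpG, against 7 over 32851 windows of all genes. Windows on chromosome 18 were left out beforehand, for members and for all genes alike, so a member there could not be matched. No window was matched for Hnrnpul2, Hnrpll, Sf3b4, Sf3b5, Sfrs18, Snrpb and Snrpd1. The ETS word was in a window of 15 of 44 members (34.1%) against 9.93% of 27025 genes. It was held by 5 of the 6 matched SF3 genes, 4 of 10 Snrp, 4 of 10 SR and 2 of 18 hnRNP genes. The E2F word was in 8 (18.2%) against 5.29%, namely 1 of 10 Snrp, 4 of 18 hnRNP, 3 of 10 SR and 0 of 6 SF3 genes. The CCAAT word was in 23 (52.3%) against 41.1%. By family that was 13 of 18 hnRNP, 4 of 10 Snrp, 4 of 10 SR and 2 of 6 SF3 genes. The TATA word (15.9% of members, 15.7% of genes) and the cell cycle homology word (18.2% and 20.2%) stood close to the share of all genes. The NRF1 word was in 3 members (6.82% against 3.05%) and the YY1 word in 2 (4.55% against 7.28%). Of the 4 Snrpn windows none had more than 7 CpG. The E2F, ETS and NRF1 words each hold a CG, and no comparison with genes of like CpG number was made. Such matches describe letters only.

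Depth is unknown for TPM, and each library is described by its number of genes seen, which was 3734 ± 930.2 in C, 3512 ± 939 in N and 3199 ± 618 in R. A value of exactly 0 can be a failed estimate: Gapdh was listed at 0 in 2 libraries, and 32.9% of member values against 78.5% of all values were listed at 0. The eCFP row of the table had a median of 8739 TPM in C, 44.6 in N and 12.0 in R. A list of 14 stem cell genes had a mean log2(TPM + 1) with a median of 6.67 in C, 2.62 in N and 4.32 in R. Lists of oligodendrocyte lineage, vascular or mature neuron genes reached 4 in 11 C libraries, 18 N libraries and all 4 R libraries. The N libraries with such a list held 6 with oligodendrocyte precursor genes, 4 with oligodendrocyte genes, 6 with endothelial genes and 3 with mural genes.

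Member levels spanned a wide range. Snrpg had the highest mean over all libraries (2104 TPM) although it was seen in only 45.3% of them. Next came Hnrnpk (959 TPM), a poly(C)-binding hnRNP, and Hnrnpa2b1 (850 TPM), a relative of hnRNP A1, which were the 2 members seen in all 172 libraries. Of 51 members 11 were seen in at least 90% of libraries, and 5 were seen in fewer than 20%. By family, the median share of libraries was 48.8% for Snrp genes, 72.4% for hnRNP genes, 73.3% for SR genes and 36.3% for SF3 genes. Over members the lowest value above 0 was smaller for longer transcripts (Spearman rho −0.63 across 51 genes, which share the same libraries). Single genes departed from this. The smallest Snrpg value above 0 was 89.1 TPM at a median coding transcript length of 1055 bases. Snrpd1, at 670 bases, went down to 1.95 TPM. Read sharing adds doubt, since 20 members, among them Snrpg, Snrpd2, Snrpe, Snrpn and Hnrnpa1, have a copy of at least 95% identity among annotated transcripts. Of the copies, 0 are rows of the expression table for Snrpg, Snrpd2 and Snrpe. The number is 1 for Snrpn (Snurf, a named gene) and 2 for Hnrnpa1. Whether reads were shared with copies that are not rows is unknown.

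Cycling C libraries were defined by a score, the mean log2(TPM + 1) of 40 genes of DNA replication and mitosis, none of them a member. At a score of at least 2 there were 27 cycling C libraries, and all other C libraries were called non-cycling. The class is a range of a score and not a cell type, and 15 libraries lay between 1.5 and 2.5. Mki67, the proliferation marker Ki-67, was seen in 18 of the cycling and 8 of the non-cycling libraries. The highest score among N libraries was 1.81, and in R it was 0.86.

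Splicing genes were broadly higher in the cycling C libraries. Of 51 members 39 were higher by at least 1 unit of mean log2(TPM + 1) and 0 were lower by that much, against 14.9% of all 12007 genes higher and 4.24% lower. The median difference was 1.78 over the members and 0.04 over all genes. All 12 Snrp genes passed the limit (median 2.91), as did 16 of 20 hnRNP genes (1.61), 6 of 11 SR genes (1.5) and 5 of 8 SF3 genes (1.38). A cycling library had 38.5 ± 4.91 members seen and a non-cycling one 29.7 ± 4.83, at 3914 ± 897 and 3692 ± 937 genes of any kind. The summed TPM of the members was 21422 ± 6994 in cycling and 11587 ± 4522 in non-cycling libraries. Of these sums Snrpg alone, a gene with near-identical copies, gave means of 5703 and 1186 TPM.

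**Figure D1:**
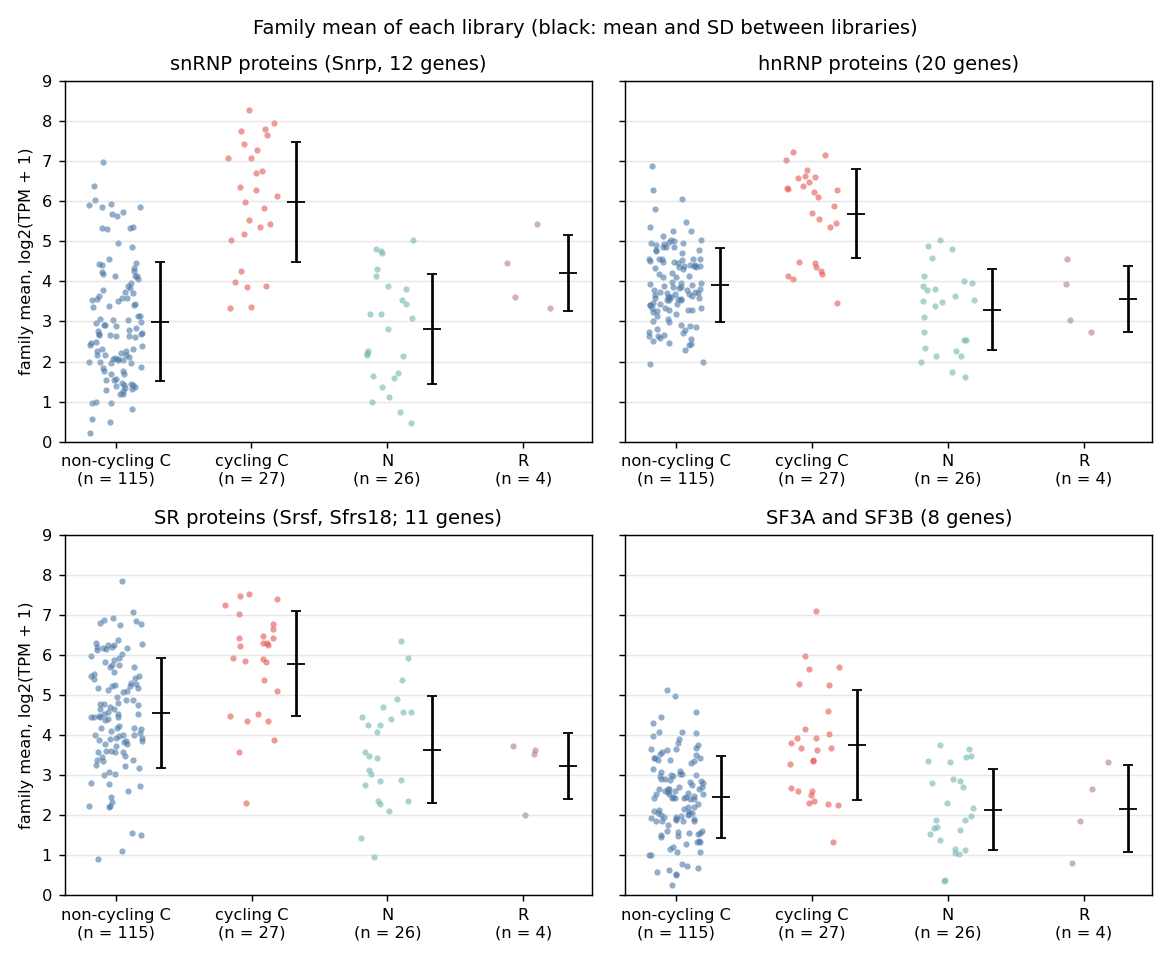
Mean log2(TPM + 1) over the genes of each family (vertical axis) in each non-cycling C, cycling C, N and R library (points), with the mean and SD between libraries in black. The cycling C libraries lie highest in every family on average, with Snrp means of 5.99 ± 1.5 against 3.0 ± 1.48 in non-cycling C libraries, and the groups overlap.

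The genes of the Sm ring had a larger median difference than any whole family. Snrpg, the SmG protein, ranged from 0 to 21865 TPM in cycling libraries with a median of 5325, and from 0 to 12503 TPM in non-cycling libraries with a median of 0. It was seen in 23 of 27 cycling libraries (85.2%, exact 95% interval 66.3 to 95.8) and 43 non-cycling ones (37.4%, 28.5 to 46.9), and its mean log2 level was 10.06 ± 4.75 against 3.86 ± 5.20, a difference of 6.20. Most cycling cells thus had Snrpg at high level while most non-cycling cells had it listed at 0. The ranges overlapped from 0 to 12503 TPM. Snrpd2 (SmD2) had a median of 779 TPM (0 to 3390) in cycling and 0 TPM (0 to 31307) in non-cycling libraries, a difference of 4.12 in mean log2 level. Snrpb (SmB) had a median of 228 TPM (0 to 904) against 1.47 TPM (0 to 1343), a difference of 4.11. Snrpe (SmE) had a median of 746 TPM (0 to 3613) against 0 TPM (0 to 4248), a difference of 3.94. For these 3 ring genes the highest single value lay in a non-cycling library. Among the libraries that had the gene, the mean log2 level differed by −0.02 for Snrpd2, 0.61 for Snrpe and 2.62 for Snrpb.

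Snrpd1 (SmD1) was seen in 96.3% of cycling and 53.9% of non-cycling libraries, with a difference of 3.79, and Snrpf (SmF) differed by 2.55. The ring members with the smallest differences were Snrpn (1.31) and Snrpd3 (1.16), the latter seen in 48.1% and 33% of libraries. Over the 8 ring genes the median difference was 3.87. The 4 proteins particular to U1 or U2 differed less, with a median of 1.83. Snrpa1, the A′ protein of the U2 particle, led them at 3.28, with a median of 66 TPM (0 to 3506) in cycling and 0 TPM (0 to 1387) in non-cycling libraries. Snrpb2 of the U2 particle and Snrpa and Snrpc of the U1 particle differed by 1.87, 1.78 and 1.78.

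Among hnRNP genes the abundant ones differed little in whether they were seen, and a few rarer ones stood out. Hnrnpa1, which represses splice sites, was seen in 19 of 27 cycling libraries (70.4%, 49.8 to 86.2) and in 22 non-cycling ones (19.1%, 12.4 to 27.5). Its median was 520 TPM (0 to 2104) against 0 TPM (0 to 2762), and its mean log2 level of 6.56 ± 4.59 against 1.31 ± 3.09 gave a difference of 5.25. Hnrnpa1 has 8 near-identical copies, of which 2 are rows of the expression table, so reads may have been divided among them. Hnrnpab, also known as CArG-box binding factor A, had a median of 276 TPM (0.59 to 2206) against 2.72 TPM (0 to 982), a difference of 4.07. Unlike Hnrnpa1 it was seen in most libraries of both groups (92.6% and 74.8%), and its difference among the libraries that had it was 3.63. Hnrnpk, seen everywhere, had a median of 1280 TPM (63.5 to 4331) in cycling and 518 TPM (2.37 to 5619) in non-cycling libraries, a difference of 2.10. Hnrnpa2b1, also seen everywhere, had medians of 943 and 799.7 TPM and a difference of 0.46, under the limit. The other 13 hnRNP genes that passed differed by 1.24 (Hnrnph3) to 2.65 (Hnrnpf). The remaining 3 were rarely seen, namely Hnrnpul1 (difference 0.85, seen in 16.9% of all libraries), Hnrpll (0.03, 22.7%) and Hnrnpul2 (−0.28, 17.4%).

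Of the SR genes 6 passed and 5 did not. Srsf7, an SR protein that also serves mRNA export, was seen in every cycling library and had a median of 569 TPM (1.54 to 2271) against 59.8 TPM (0 to 2392), a difference of 3.20. Srsf3, a close relative of Srsf7, had a median of 795 TPM (1.97 to 2390) against 219.8 TPM (0 to 2657), a difference of 2.41. Srsf1, also known as SF2/ASF, differed by 2.39, Srsf10, a repressor when dephosphorylated, by 2.31, Srsf6 by 2.26 and Srsf9 by 1.5. Among the 5 others, Srsf2 (SC35) differed by 0.27 and Srsf4 by 0.77. Srsf5 had a median of 241 TPM (0.76 to 1558) in cycling and 243 TPM (0 to 3921) in non-cycling libraries, a difference of −0.23. Sfrs18, an arginine- and serine-rich protein, had medians of 110 and 198 TPM and a difference of −0.52. Srsf11 was the member furthest below, with medians of 8.08 and 15.7 TPM, shares of 66.7% and 76.5% and a difference of −0.90. These last 3 lay below 0 without reaching the limit on the lower side.

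Of the SF3 genes 5 of 8 passed, and the median of the 8 was 1.38, against 3.87 for the Sm ring. Sf3a3, a subunit of SF3A, was seen in 55.6% of cycling and 33% of non-cycling libraries and differed by 2.24. Sf3b2 had a median of 165 TPM (0 to 1198) against 8.82 TPM (0 to 2114) and differed by 2.07. Sf3b5 differed by 1.88, Sf3b3 by 1.42 and Sf3b1, the subunit that holds the branch point, by 1.34. Sf3b1 was the most widely seen of the family, with medians of 182 and 70.1 TPM. Sf3a1 (0.88), Sf3b4 (0.63) and Sf3a2 (−0.04) were under the limit.

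Both the share of libraries with a gene and its level where it was seen were larger in cycling libraries. The median share was 85.2% in cycling and 53.9% in non-cycling libraries, and 45 of 51 members were seen in the larger share of cycling ones. Among the libraries that had the gene, 42 of 51 members were higher in cycling libraries, by a median of 0.94. Neither count was taken over all genes, so no background share stands beside them. Cycling libraries also had more genes of any kind seen on average. Where TPM was averaged before the logarithm, 13 members were higher, 3 were lower and the median difference was 0.64, against −0.35 over all genes with 15.2% higher and 32.2% lower. Several marker lists moved with the split: the median of the stem cell list was 4.42 in cycling and 6.96 in non-cycling libraries, that of the astrocyte list was 2.15 and 4.25, and that of the intermediate progenitor list was 3.47 and 1.5. Their part in the member differences was not tested.

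**Figure D2:**
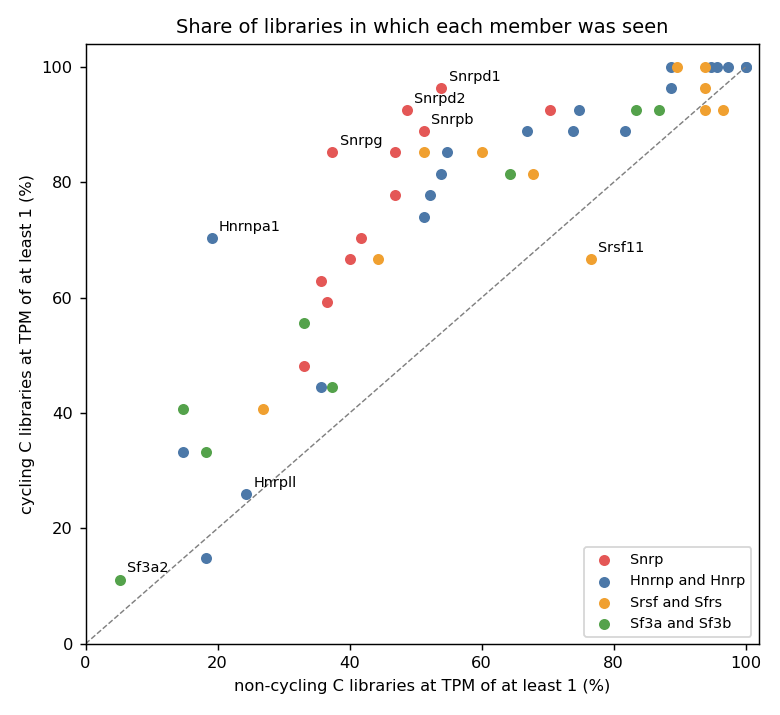
Share of non-cycling C libraries (horizontal axis, %) and of cycling C libraries (vertical axis, %) with each member at 1 TPM or more, 1 point per member, with the dashed line where both are equal. Snrpg (37.4% and 85.2%) and Hnrnpa1 (19.1% and 70.4%) lie far above the line, and Srsf11 (76.5% and 66.7%) lies below it.

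Along the score the families took different courses. The Sm ring mean was 3.38 ± 1.71 in the 42 C libraries with a score under 0.75, 3.63 ± 1.98 in the 29 from 0.75 to 1, 3.16 ± 1.85 in the 32 from 1 to 1.5 and 4.28 ± 2.20 in the 12 from 1.5 to 2. It was 6.23 ± 1.94 in the 11 libraries from 2 to 4 and 7.31 ± 1.74 in the 16 from 4 upward. Below a score of 1.5 the ring means differed by less than their SD, and they stood higher in cycling libraries. The SR mean went from 3.94 ± 1.36 through 4.74, 4.86 and 5.43 to 5.87 and 5.71 ± 1.51 in the same ranges, so most of its climb lay below a score of 2. The number of genes seen also climbed over the non-cycling ranges, from 3210 to 4527 on average, and was 3802 and 3991 in the 2 cycling ranges.

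**Figure D3:**
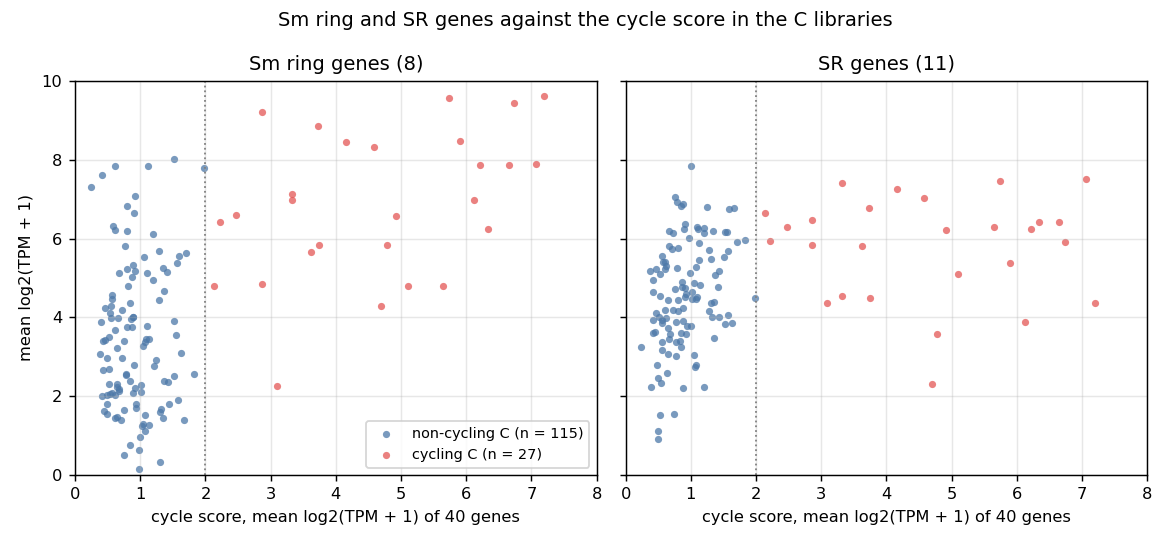
Mean log2(TPM + 1) of the 8 Sm ring genes (left) and the 11 SR genes (right) against the cycle score in each C library, with the dotted line at a score of 2. The ring means of cycling libraries run from 2.25 to 9.62 and those of non-cycling libraries from 0.14 to 8.02, while the SR means of both overlap over most of their range.

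Across all C libraries, which share depth effects, the family means had a Spearman rho with the score of 0.43 (Snrp), 0.55 (hnRNP), 0.45 (SR) and 0.30 (SF3). With the number of genes seen, rho was 0.24, 0.42, 0.58 and 0.24. For SR genes rho was larger with the number of genes seen than with the score, and for Snrp genes it was smaller. Within the non-cycling libraries rho with the score was 0.07 (Snrp), 0.33 (hnRNP), 0.36 (SR) and 0.06 (SF3). Within the 27 cycling libraries it was 0.51, 0.56, −0.05 and 0.43. Single genes hardly moved together from cell to cell: the mean rho over pairs of Snrp genes was 0.12 across C, and the highest of all member pairs, Hnrnpa1 with Hnrnpm, was 0.34, which is weak in values with many zeros.

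Members were also higher in C than in N, by less. The question is whether the C class, rich in stem cell genes, differs from the mixed N class. Of 51 members 19 were higher in C by at least 1 log2 unit and 0 lower, against 9.98% of all genes higher and 4.19% lower. The median difference was 0.80 over the members and 0.17 over all genes. Above 0 lay 47 of 51 members, against 7602 of all 12007 genes. By family 6 of 11 SR genes (median 1.20), 8 of 20 hnRNP genes (0.85), 4 of 12 Snrp genes (0.55) and 1 of 8 SF3 genes (0.54) passed. The order of the families was therefore not that of the cycling comparison, with SR genes first.

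Srsf2, which binds exonic enhancers, had C values with a median of 197 TPM (0 to 3274) and N values with a median of 13 TPM (0 to 1012), with mean log2 levels of 6.91 ± 3.02 and 4.22 ± 3.57 and a difference of 2.69. For Sfrs18 the median was 162 TPM (0 to 3670) against 2.75 TPM (0.28 to 991), a difference of 2.56. Hnrnpa2b1 had a median of 825 TPM (1.30 to 4359) against 338 TPM (1.59 to 2161), a difference of 2.42. None of these 3 genes passed the limit between cycling and non-cycling C libraries. Snrpd1 (2.37), Snrpe (2.20) and Srsf7 (2.19) followed, and Hnrnpk differed by 1.86. Hnrnpc, an hnRNP that binds uridine tracts, had a C median of 406 TPM (0 to 2866) and an N median of 12.6 TPM (1 to 1102), a difference of 1.72. The other 10 members that passed outside the SF3 family differed by 1.20 (Srsf6) to 1.70 (Hnrnph1). In the SF3 family only Sf3b3 passed (1.11), seen in 28 C libraries (19.7%) and 1 of 26 N libraries (3.85%).

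At the other end, in C the median of Snrpn was 5.37 TPM (0 to 2965), and N libraries had 17.6 TPM (0 to 1927), a difference of −0.89. Srsf3 had medians of 368 and 439 TPM (−0.38), Hnrnpr medians of 1.33 and 2.09 TPM (−0.28), and Snrpb2 a difference of −0.04. Srsf9 (0.17), Hnrnpul2 (0.06), Sf3a1 (0.14) and Sf3a2 (0.04) differed hardly at all. All ranges of C and N overlapped. That was not counted over all genes, and most members had values of 0 in both classes, so it says little about the members.

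The C and N classes also differ in makeup, and those values stand beside the result. With non-cycling C libraries alone against N, 13 members were higher and 1 lower, against 9.14% and 4.76% of all genes, the overall median was 0.40 and the Snrp median was −0.11, while the SR median was 0.77. Without the 11 C and 18 N libraries that had a list of another cell type at 4 or more, 8 N libraries remained, and 18 members were higher and 4 lower, against 12.2% and 11.7% of all genes. In that setting Snrpd2 was at −0.85 and Srsf7 at −0.56. With libraries rescaled by the median ratio the count was 11 higher and 1 lower, and the split over all genes went from 9.98% and 4.19% to 5.73% and 4.93%. That rescaling moved the median of all genes from 0.17 to 0.06 and that of the members from 0.80 to 0.47.

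**Figure D4:**
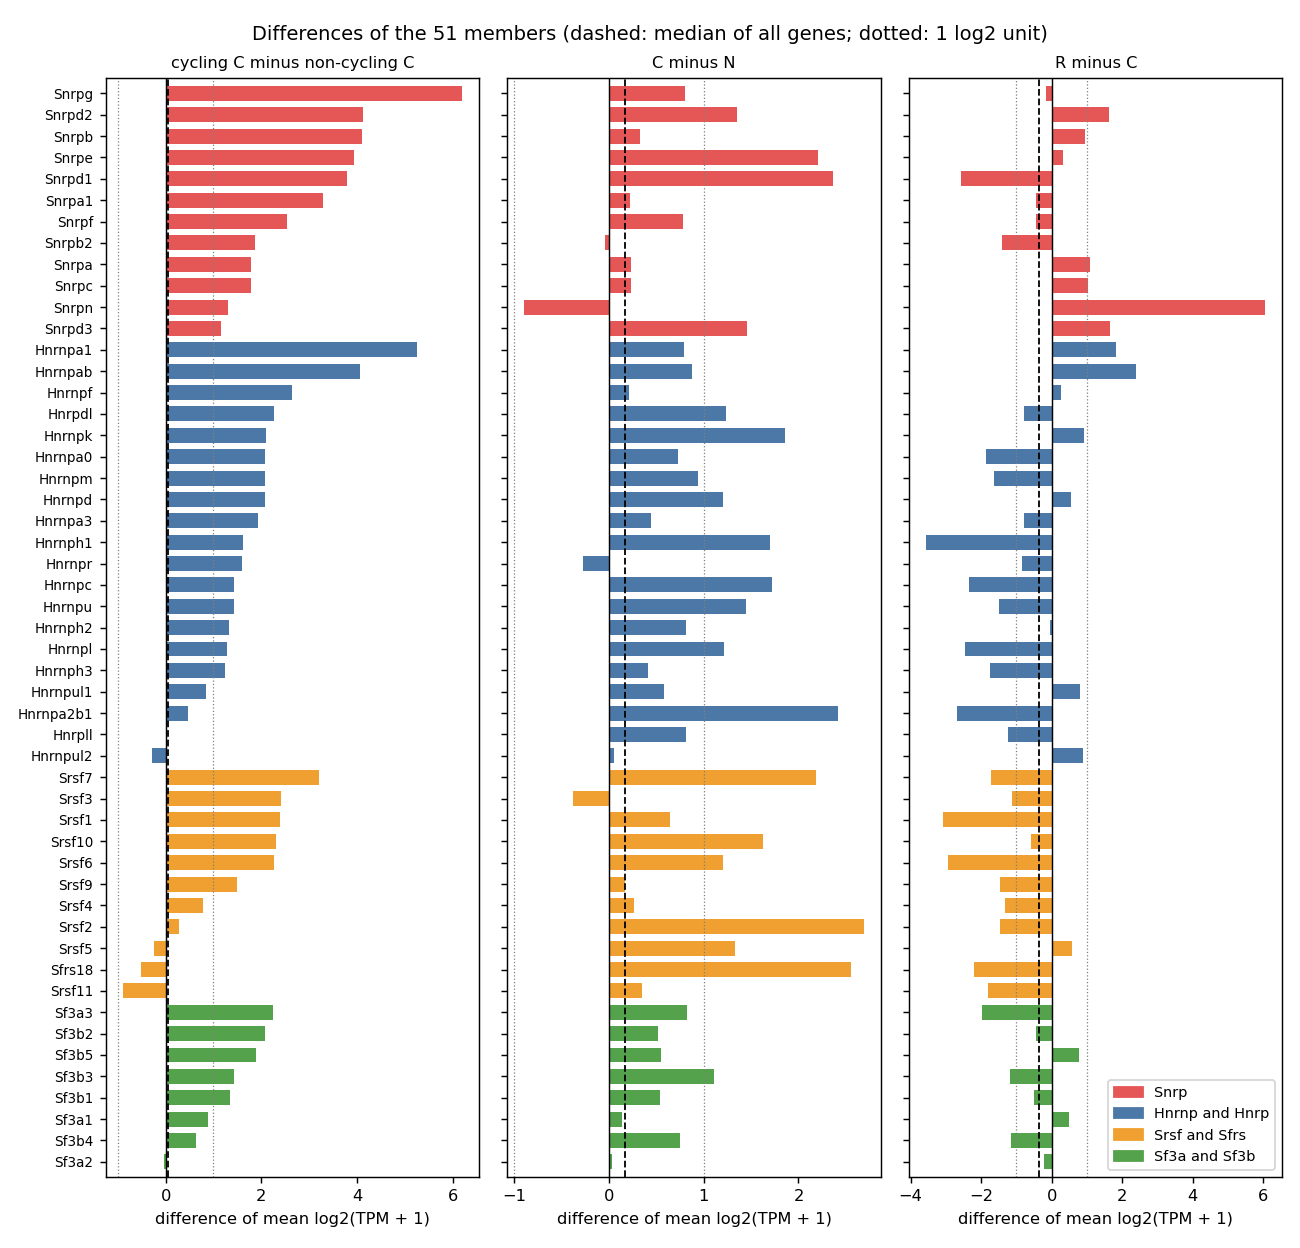
Difference of mean log2(TPM + 1) for each of the 51 members (bars, coloured by family) in cycling minus non-cycling C (left), C minus N (middle) and R minus C (right), on separate axes, with dashed lines at the median of all genes and dotted lines at 1 unit. All Snrp bars pass the limit on the left, SR bars lead in the middle, and on the right Snrpn has the longest bar at 6.06.

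In R, Snrpn had the largest difference from C of any member, and most SR genes were lower. The R libraries carry neuronal genes: the mature neuron list had means from 5.58 to 8.10 in the 4 R libraries, against a median of 0.55 in C. Other lists were raised in some of them. R3 had means of 5.79 for astrocyte, 4.03 for oligodendrocyte and 3.83 for microglia genes, and R1 had 5.32 for stem cell genes. The contrast shares its C libraries with C minus N and rests on 4 libraries. Of 51 members 7 were higher in R and 23 lower, against 20.9% of all genes higher and 22% lower, and the median was −0.78 over the members and −0.36 over all genes. SR genes were at a median of −1.48 with 9 of 11 lower and 0 higher. Their median share of libraries seen was 50% in R and 74.6% in C. Among the libraries that had the gene, their median difference was −0.50, with 4 of 10 genes higher in R. Over all members that median was −0.18, with 21 of 44 higher. These values were not taken over all genes. Of the hnRNP genes 9 of 20 were lower and 2 higher (median −0.81), of the SF3 genes 3 of 8 were lower (−0.47), and of the Snrp genes 5 of 12 were higher and 2 lower (0.63). Single libraries moved these values: 11, 14 and 12 members were higher without R1, R2 and R4, against 22.8%, 22.8% and 24.4% of all genes. The SR median was −2.64 without R3, and the hnRNP median was −1.46 without R1. The SF3 median was −0.69 without R1, 0.21 without R2, −0.79 without R3 and −1.17 without R4.

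Snrpn had 1143, 566, 1825 and 787 TPM in R1 to R4. In C it ran from 0 to 2965 TPM with a median of 5.37. The mean log2 level was 9.94 ± 0.72 in R and 3.88 ± 3.42 in C, a difference of 6.06, the largest of any member. All 4 R libraries were high, yet 11 C libraries and 6 N libraries had at least the lowest R value, and 42 C libraries had at least 100 TPM. Snrpb, whose product SmN replaces, had 115.8, 2.02, 299 and 0 TPM in R1 to R4.

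The balance of the 2 genes differed between groups. Snrpn was above Snrpb in 4 of 4 R libraries, in 15 of 26 N libraries with the reverse in 7, and in 66 non-cycling C libraries with the reverse in 36. In cycling C libraries Snrpb was above in 19 of 27 and Snrpn in 7. Both were at 100 TPM or more in 14 C libraries. Among N libraries 9 had Snrpn at 100 TPM or more. Of these 9, N8, N9, N13, N18 and N19 had neuroblast lists between 2.47 and 6.17 and neuron lists between 2.23 and 3.66. N20, N23 and N25 had oligodendrocyte lists of 6.13, 6.23 and 11.6, and N16 had a mural list of 8.87. In the 6 N libraries with an endothelial list of at least 4 it ran from 0 to 18.6 TPM. The other N library with an oligodendrocyte list of at least 4 had 11.7 TPM, and the 6 with oligodendrocyte precursor genes had a median of 17.6 TPM (1 to 1927). In the 42 C libraries with at least 100 TPM the mature neuron list had a median of 0.54 and the oligodendrocyte list one of 0.80, with 3 and 1 of the 42 at 4 or more. High Snrpn was thus seen in libraries with and without these lists. Snurf, which shares the Snrpn transcript, had medians of 6.92 TPM in R and 0.06 TPM in C, and reads of the 2 rows may be divided between them.

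**Figure D5:**
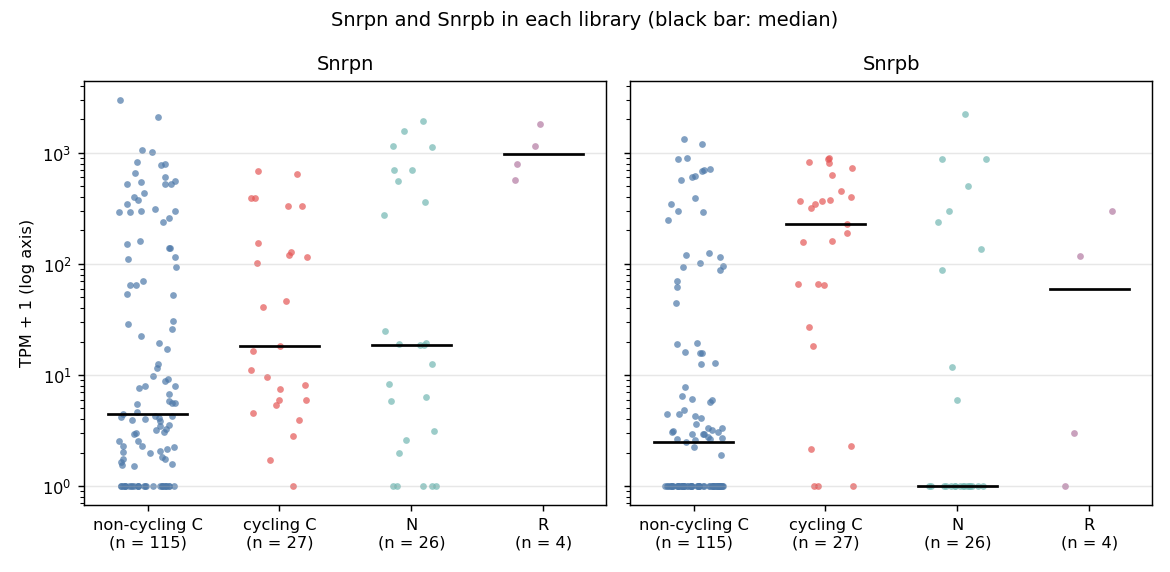
TPM + 1 on a log axis of Snrpn (left) and Snrpb (right) in each library of the 4 groups, with the median as a black bar. The 4 R libraries lie between 566 and 1825 TPM for Snrpn, and Snrpb has its highest median, 228 TPM, in cycling C libraries.

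Among the other members higher in R, each rested on part of the 4 libraries. Hnrnpab had 599.7, 320.5, 64.5 and 0.73 TPM (difference 2.38) and Hnrnpa1 had 404, 0, 238 and 0 TPM (1.83). Snrpd3 had 370 and 375 TPM in R1 and R3 and 0 in the others (1.67), and Snrpd2 had 261, 0, 574 and 1767 TPM (1.63). Hnrnpab was above its C median of 3.74 TPM in 3 of the 4, and Hnrnpa1, with a C median of 0, was listed at 0 in 2. Leaving out 1 library brought Hnrnpa1 to 0.32 (without R1), 0.58 (without R3) or 3.21 (without R2 or R4), Hnrnpab to 1.34 (without R1) or 4.15 (without R4), Snrpd3 to 0.24 (without R1 or R3) or 3.09 (without R2 or R4), and Snrpd2 to 0.90 (without R3), 0.36 (without R4) or 3.96 (without R2). Snrpa (1.07) and Snrpc (1.03) just passed with 2 of 4 libraries at 0. Sf3b5 (0.77), Srsf5 (0.56), Sf3a1 (0.48) and Srsf10 (−0.60) were the furthest above in the SF3 and SR families and did not pass.

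Of the lowest members in R, Hnrnph1 and Hnrnpc were seen in 95.8% and 97.9% of C libraries, and Srsf1 and Srsf6 in 57.7% and 64.8%. Hnrnph1, which binds G-runs, had 2.77, 0.77, 178 and 0.80 TPM in R, and 95.6 TPM (0 to 3331) as the C median, a difference of −3.57. Srsf1 had 1.01, 0, 0 and 0.58 TPM against a C median of 4.63 TPM (−3.09). Srsf6 had 1.59, 0.44, 0.32 and 0.46 TPM against a C median of 2.34 TPM (−2.93). Both SR genes were thus at or under 1.59 TPM in every R library, yet C libraries reached down to 0 as well. Hnrnpa2b1 had 6.10, 279.2, 201 and 153 TPM against 825 TPM (−2.68, or −1.47 without R1). Hnrnpc had 7.4, 0.59, 153 and 433 TPM against 406 TPM (−2.34, or −0.92 without R2 and −3.62 without R4), and Snrpd1 had 0, 3.45, 3.77 and 7.19 TPM against 6.34 TPM (−2.56). Sf3a3 (−1.99) and Sf3b3 (−1.19) were listed at 0 in all 4 R libraries, and their median was 0 in C too. No member had R and C ranges apart. That was not counted over all genes, and C values of most members started at 0, so it says little about the members. The other 15 members that were lower differed by −2.45 (Hnrnpl) to −1.13 (Srsf3, at −1.93, −2.01 and 0.59 without R1, R2 and R3). Leaving out R3 brought the Snrp median to −0.18, and averaging TPM before the logarithm brought it to −0.49, with the median of all genes at −2.13.

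Other genes of the splicing pathway, taken from 8 lists of which all genes but 1 met the low-value limit, were less uniform. In cycling C libraries 49 (46.2%) were higher and 2 (1.89%) lower, against 14.9% and 4.24% of all genes, with a median of 0.95. The Lsm ring, a relative of the Sm ring on U6 snRNA and in mRNA decay, had the highest median of the lists (2.88), with 6 of 8 genes higher and Lsm3 furthest at 4.05 (median 363 TPM against 0). Tra2b, an SR-related activator, had a median of 351 TPM in cycling and 4.03 TPM in non-cycling libraries, a difference of 3.53. Phf5a of SF3B (2.61), Eftud2, the U5 GTPase (2.59), Rbm3, a cold-inducible RNA-binding protein (2.51), and Rbm8a of the exon junction complex (2.42) led their lists. Snrnp25 of the minor spliceosome (2.10) and Gemin2 of the SMN complex (1.68) led theirs, with medians of 0 in both groups. The 2 lower genes were Clk1, a kinase of SR proteins (medians of 28.9 and 204 TPM, difference −1.49), and Clk4 (−1.17), the second named because of its value.

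In C against N, 20 pathway genes (18.9%) were higher and 2 (1.89%) lower, against 9.98% and 4.19% of all genes, with a median of 0.44. Lsm7 was furthest (174 TPM against 0, difference 3.26), followed by Rbmx (2.28), Pnn (1.88), Rbm25 (1.68), Prpf31 (1.61), Gemin8 (1.24) and Magohb (0.999, just under the limit) in their lists. For Snrnp27 the C median was 8.78 TPM and the N median 83.4 TPM, a difference of −1.32. In R against C, 20 (18.9%) were higher and 43 (40.6%) lower, against 20.9% and 22% of all genes, with a median of −0.55. The share higher in R was thus near that of all genes. Clk1 had a median of 1.53 TPM in R and 136.1 TPM in C (−4.28), and Smn1, the core of the complex that loads Sm rings, had mean log2 levels of 0.36 and 3.55 (−3.18). On the higher side stood Rbm3 (9.65 ± 0.34 against 4.92 ± 3.85, difference 4.73), Lsm3 (4.54), Prpf8, the U5 protein at the catalytic centre (5.77 ± 2.21 against 1.82 ± 2.64, difference 3.95), and Snrnp25 (3.26). U2af1, which reads the 3′ splice site, was listed at 0 in all 4 R libraries (−1.98), and Eif4a3 of the exon junction complex was at −1.09.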

How the data were processed

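Single-cell libraries were prepared with a NuGEN Ultralow V2 kit, per the labels' protocols. The authors deposited 1 table of TPM per gene and library, estimated with RSEM on mm9, per the submitters' processing notes. For the aligner, the annotation and all versions, "not given in the sources used here" applies. Of 173 labelled samples, 172 columns were analysed. Column C27 fitted 2 titles and entered class C with no number.

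A library needed 1000 genes at 1 TPM (0 were removed) and a gene 1 TPM in 5% of libraries. Differences are of mean log2(TPM + 1), a scale that understates changes of low genes, over all genes that met the limit, and a gene was counted as higher or lower at 1 log2 unit. TPM keeps no depth, so no count test was run and no p-value is given. Shares carry exact Clopper-Pearson 95% intervals, for counting error only. Doublets were not called.

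Named genes are, per family, the 3 of highest mean TPM and the 2 furthest above and below in each comparison, some others, mostly past 1 log2 unit, and in each pathway list the gene furthest from 0. Members, lists and rules were chosen with earlier results of these data known. Near-identical copies were sought in GENCODE transcripts (at least 95% identity over 200 bases). Mean differences and the limit of 1 log2 unit were checked on simulated data, with changes of 3 log2 units in genes seldom at 0. No change was planted in genes often listed at 0, as several members are. Python 3.11.15 with pandas 2.3.3 and scipy 1.17.1 was used. Alternatives were other pseudocounts, no low-value limit, rescaling, a stricter library limit, averaging before the logarithm, other definitions of cycling, and leaving out libraries or members.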

Additional observations from a re-analysis of the deposited data

Results flagged for a closer look

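In 12 of 41 values set side by side over the 4 R libraries (7 means over families or groups of members, and 34 named genes), 1 library stood apart from the other 3 by a gap larger than Dixon's 95% critical value for a share of the group's range. Chance gives this in about 1 in 20 groups of normally spread values, which values with many zeros are not. In a gene listed at 0 in 3 of 4 libraries any value stands apart. The 41 values also share the same 4 libraries, so the screen is a description only. All values here are log2(TPM + 1).

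R3 stood apart in 6 genes. It was high in Hnrnph1 (7.49, others 0.82 to 1.91), Hnrnpr (7.01, others 0 to 1.08), Srsf11 (7.47, others 0.61 to 1.53), Hnrnpul2 (6.90, others 0) and Srsf9 (4.70, others 0). It was low in Srsf5 (0.95, others 9.41 to 9.66). R1 stood apart in 4 genes, low in Hnrnpa2b1 (2.83, others 7.27 to 8.13) and high in Snrpb2 (4.05, others 0), Srsf6 (1.37, others 0.40 to 0.55) and Hnrpll (0.94, others 0). R4 was high in Sf3a1 (9.47, others 0 to 0.70) and low in the mean over the 11 SR genes (1.99, others 3.54 to 3.73). R4 also had the highest mature neuron list of the 4 (8.10) and the fewest members seen (20). R3 had the highest astrocyte (5.79), oligodendrocyte (4.03) and microglia (3.83) lists of the 4.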

How the results depend on the processing

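No paired analysis was possible because the title numbers only name cells, and no test between classes was run. Across all alternatives, of 238 summary values 211 stayed within 1.5 times the main count or 1 SD between libraries of the main median, 23 moved further and 4 medians changed sign. That SD is wide. Of 784 values of named genes 59 changed sign, 6 from a main difference past 1 log2 unit and 53 from a smaller one. For C minus N the count higher was 29 with a pseudocount of 0.1, 12 with 10 and 11 with rescaling, against 20.7%, 3.73% and 5.73% of all genes higher, and the count lower was 1 with rescaling, with 3000 genes required per library and with TPM averaged before the logarithm, and 4 without libraries of other cell types, which also put Snrpd2 at −0.85 and Srsf7 at −0.56. For R minus C the count lower was 13 with a pseudocount of 10 (7.22% of all genes), the count higher was 15 with 3000 genes required (2 R libraries left, 25.2% of all genes), and averaging before the logarithm put the Snrp median at −0.49, Hnrnpa1 at −0.43 and Snrpd2 at −0.30. Leaving out 1 R library at a time gave 8 to 14 higher, Snrp medians from −0.18 (without R3) to 0.48, SF3 medians from −1.17 to 0.21 (without R2), SR medians from −2.64 to −1.15, hnRNP medians from −1.46 to −0.79, and Srsf3 from −2.01 (without R2) to 0.59 (without R3). For cycling minus non-cycling C, averaging first gave 13 higher and 3 lower, against 15.2% and 32.2% of all genes. The medians were then 0.64 (all), 0.93 (Snrp) and 0.57 (hnRNP), with Snrpn at −0.28. Rescaling gave 1 lower (4.39% of all genes). Chosen after seeing the data, leaving out the 20 members with near-identical copies left 31. Of these, 12, 3 and 22 were higher for C minus N, R minus C and cycling, against 9.98%, 20.9% and 14.9% of all genes. The members left out include Snrpg and Hnrnpa1, which had the largest cycling differences. Also chosen then, non-cycling C libraries alone gave 1 lower (4.76% of all genes) and a Snrp median of −0.11 against N. They gave 12 higher in R (21.7% of all genes). Leaving out the 15 libraries near the score limit gave 40 higher in cycling (16.8% of all genes). Where no reason is given, the cause was not tested. Depth is unknown, so a gene listed at 0 may be present.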
